A study of Mus musculus with 20 samples.

Results

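The genes described here mark the cells that wrap retinal blood vessels: 6 genes of pericytes (Pdgfrb, Rgs5, Cspg4, Kcnj8, Abcc9 and Notch3) and 4 genes of the contractile apparatus of smooth muscle (Acta2, Myh11, Tagln and Des). They were taken by gene symbol, and all 10 of 10 were found in each deposited table, among 19716 genes listed in any of them. RNA was sequenced from whole mouse retina in 4 groups of 5 libraries. In the oxygen-induced retinopathy (OIR) experiment, Atf6+/+ and Atf6-/- pups breathed 75% oxygen from postnatal day (P) 7 to P12, were returned to room air, and gave retinas at P17. In the inhibitor experiment, wild-type mice received 1 µL of either Ceapin-A7 at 10 µM, a small molecule that blocks ATF6 activation, or the PBS control into the vitreous of both eyes, and their retinas were taken at P30, 24 h later. The Atf6-/- mice carry a germline change that brings a premature stop in exon IV on a C57BL/6J background, so the change is present in every cell type of the retina, mural cells included. The sources differ on how much dimethyl sulfoxide the inhibitor and the control solution contained, so a difference of vehicle cannot be told apart from the inhibitor. No source used here says whether the 5 libraries of a group came from 5 animals, so p-values measure the spread between these libraries.

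Pericytes sit within the basement membrane of capillaries, where their endothelial cells secrete PDGF-B and hold them in place through the PDGF receptor beta on the pericyte. Arterioles and venules are wrapped by smooth muscle cells, which share much of the pericyte programme and add the actin and myosin filaments of contraction. In the retina both kinds of cell steady the vessel wall and the blood-retinal barrier, and the growth and regression of vessels after hyperoxia can change their number and coverage. In RNA from a whole retina, fewer cells of a type and less RNA per cell cannot be told apart.

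The libraries were alike in their sums of FPKM, and 3 kinds of departure touch the genes below. Sums of FPKM, the fragments of a gene scaled by its length and by the size of the library, ran from 410599 to 456250 per library, and the step size of the low values put relative depth at 1.0 in 19 libraries and at 0.68 in Ceapin-A7 replicate 3. Rod genes were abundant throughout, with group means of Sag, the rod arrestin, between 1785 and 3177 FPKM. Atf6 RNA itself did not separate the genotypes, at 13.57 to 16.83 FPKM in Atf6-/- OIR and 14.61 to 16.05 FPKM in Atf6+/+ OIR, while Gm29733, a gene model inside Atf6, was at 3.12 to 6.89 FPKM in the 5 Atf6-/- libraries and at most 0.21 FPKM in the 5 Atf6+/+ libraries. RNA of neighbouring tissue varied widely. Lens genes summed to between 5.83 FPKM in Atf6-/- OIR replicate 5 and 8704.13 FPKM in Ceapin-A7 replicate 1. Genes of pigment epithelium and melanocytes summed to between 22.45 FPKM in Atf6+/+ OIR replicate 1 and 440.28 FPKM in Ceapin-A7 replicate 3. Ceapin-A7 replicates 3 and 4 carried RNA of fibroblasts, melanocytes or skeletal muscle, and Atf6+/+ OIR replicate 4 and Atf6-/- OIR replicates 4 and 5 stood apart most with the base composition of the transcripts. Fold changes with and without them are given for Pdgfrb, Cspg4 and Notch3 in OIR and for the contractile genes in the inhibitor experiment. The correlations include these libraries.

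Among the 10 genes, Rgs5, a regulator of G-protein signalling that is enriched in pericytes, had the highest mean level in all 4 groups. Its FPKM was 83.2 ± 15.1 (SD, n = 5) in Atf6+/+ OIR, 65.2 ± 3.56 in Atf6-/- OIR, 17.6 ± 2.02 in PBS and 19.8 ± 0.816 in Ceapin-A7 retinas. Acta2, the smooth muscle alpha-actin, came next in all 4 groups, with means between 5.25 FPKM in PBS and 19.7 FPKM in Atf6+/+ OIR. Of the 9 neighbouring pairs in the order of mean levels, only 2 were apart by range in Atf6+/+ OIR, namely Rgs5 above Acta2 and Tagln above Abcc9. The same 2-pair count held in Atf6-/- OIR and in PBS, and 1 pair was apart in Ceapin-A7, Abcc9 above Cspg4. Lowest in mean were Myh11 in the OIR groups (1.18 FPKM in Atf6+/+ and 0.700 FPKM in Atf6-/-) and Cspg4 in the P30 groups (0.502 FPKM in PBS and 0.468 FPKM in Ceapin-A7). FPKM is scaled by transcript length, which allows such an order between genes, although actin paralogues such as Acta2 and Actg2 share sequence and their counts can be split by the authors' counting.

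**Figure D1:**
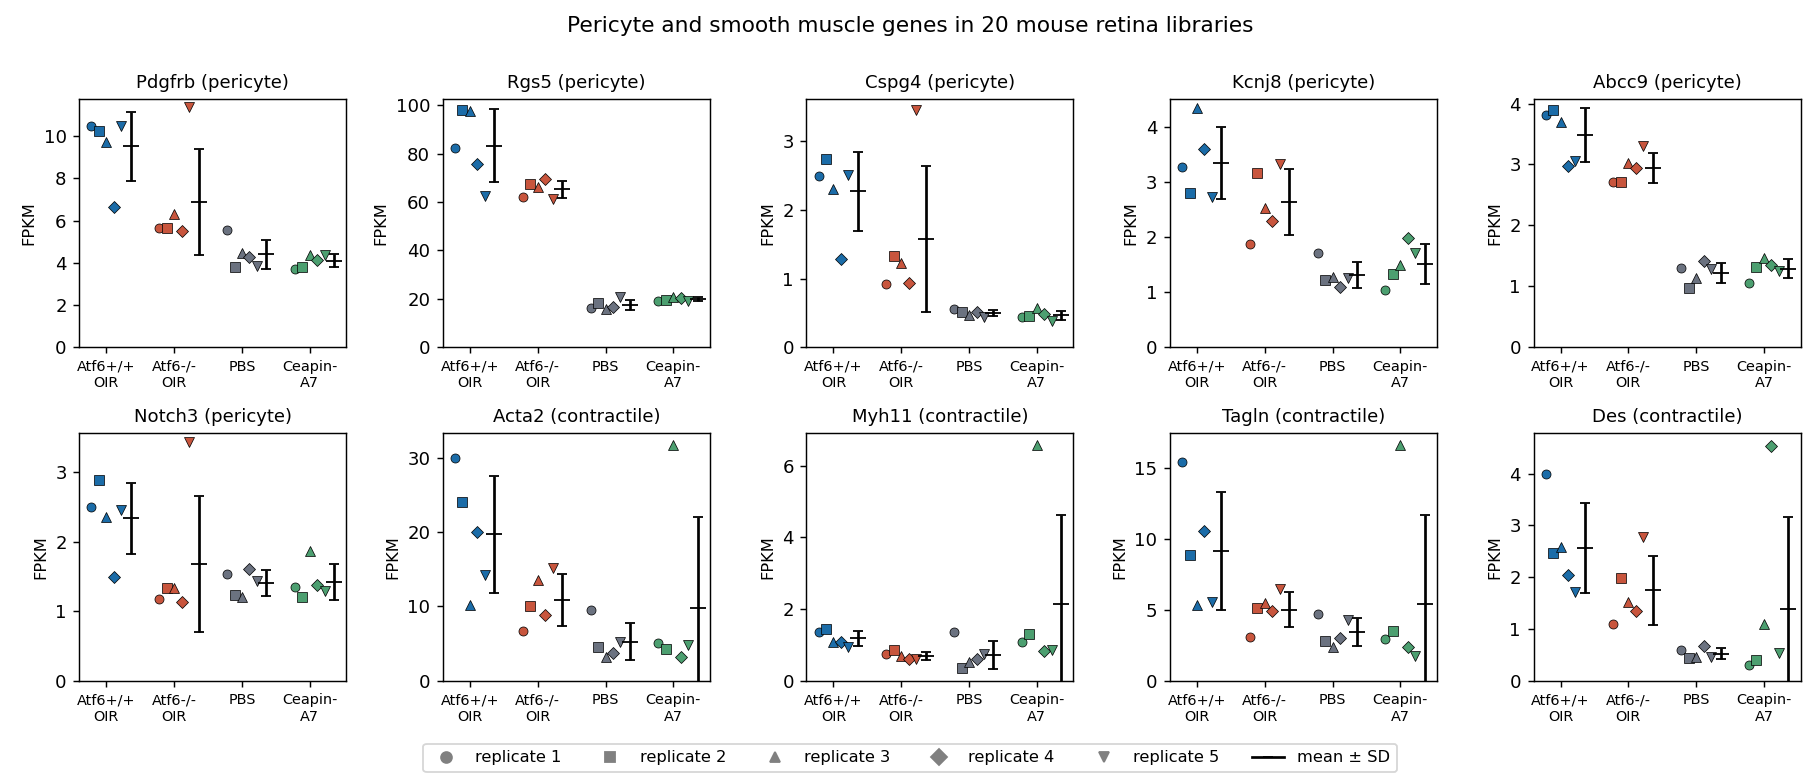
FPKM (linear axis from 0) of the 6 pericyte and 4 contractile genes in each library, with a marker shape per replicate and the mean ± SD of 5 libraries beside each group; SD bars that reach below 0 are cut at the axis. The P17 OIR groups sit above the P30 groups for most genes, Atf6-/- OIR replicate 5 stands above its group for Pdgfrb, Cspg4 and Notch3, and Ceapin-A7 replicate 3 stands above its group for Acta2, Myh11 and Tagln.

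To see whether the 10 genes varied as one programme, log2 values were centred on each group and correlated over the 20 libraries, as a description without a test. Acta2 and Tagln varied together in both experiments, with a Pearson r of 0.92 within the 10 OIR libraries and 0.93 within the 10 P30 libraries. Myh11 had r of 0.34 with Acta2 and 0.32 with Tagln within OIR, against 0.95 with each within P30, where Ceapin-A7 replicate 3 was far above the rest for all 3 genes. Des, the intermediate filament protein desmin that skeletal muscle also makes, had r of 0.66 with Acta2, 0.71 with Tagln and 0.36 with Myh11 within OIR, and between -0.04 and 0.05 within P30, where Ceapin-A7 replicate 4 was far above the rest for Des. Among pericyte genes, over all 20 libraries, Pdgfrb, Cspg4 and Notch3 varied together (r of 0.90 to 0.95), whereas Rgs5 had r of -0.09 with Pdgfrb and 0.06 with Cspg4. Pdgfrb, Cspg4 and Notch3 have transcripts of 54.9%, 59.2% and 59.6% GC and Rgs5 one of 41.1%, and the points share the libraries that stood apart by GC content. Within the 10 P30 libraries alone, Pdgfrb had r of 0.39 with Cspg4 and 0.35 with Notch3, against 0.97 and 0.98 within the 10 OIR libraries.

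Outside the 10, the genes most like the contractile set were Col3a1 (r of 0.90), Cavin3 (0.88), Myl9 (0.85), Il10rb (0.84) and Cnn2 (0.83), out of 12987 genes searched over 20 libraries. Those most like the mean of the pericyte genes were Lrp10 (0.93), Kazn (0.92), Capn1 (0.91), Ephb2 (0.91) and Flt4 (0.91). Both rankings include the libraries that stood apart, and no shared control is read from them.

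Promoters of Acta2 and of Myl9 and Cnn2, from the genes most like the contractile set, are shown because smooth muscle genes are textbook targets of serum response factor, whose binding site is the CArG box. Myl9 and Cnn2 were picked because their promoters hold matches, so their matches say nothing about the other similar genes. The stretches are the 250 bases before the annotated start, from RefSeq on the build GRCm38.p6, which is older than the GRCm39 build of the deposited values. Capitals mark matches to the CArG box with at most 1 mismatch. Acta2 lies at chr19:34255374-34255623, minus strand. Myl9, the regulatory myosin light chain, lies at chr2:156775214-156775463, plus strand. Cnn2, a calponin, lies at chr10:79988350-79988599, plus strand.
Acta2 promoter: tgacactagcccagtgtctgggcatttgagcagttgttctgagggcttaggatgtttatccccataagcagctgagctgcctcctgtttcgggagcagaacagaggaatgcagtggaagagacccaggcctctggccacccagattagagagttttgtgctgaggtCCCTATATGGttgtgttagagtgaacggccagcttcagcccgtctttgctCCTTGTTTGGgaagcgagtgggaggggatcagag
Myl9 promoter: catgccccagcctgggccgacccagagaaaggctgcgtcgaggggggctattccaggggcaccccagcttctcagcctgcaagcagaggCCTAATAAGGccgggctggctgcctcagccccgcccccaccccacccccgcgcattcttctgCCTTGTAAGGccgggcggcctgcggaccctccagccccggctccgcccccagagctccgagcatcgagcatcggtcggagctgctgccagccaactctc
Cnn2 promoter: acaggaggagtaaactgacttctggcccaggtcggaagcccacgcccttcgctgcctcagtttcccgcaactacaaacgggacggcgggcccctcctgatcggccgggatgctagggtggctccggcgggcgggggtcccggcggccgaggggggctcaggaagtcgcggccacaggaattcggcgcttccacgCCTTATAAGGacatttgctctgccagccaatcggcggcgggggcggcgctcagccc
The CArG box is 10 bases long and reads the same on both strands, so 1 strand was searched and overlapping matches were kept. Acta2 held CCCTATATGG and CCTTGTTTGG, each with 1 mismatch and beginning 84 and 34 bases before the start. Myl9 held an exact match, CCTAATAAGG, and CCTTGTAAGG with 1 mismatch, and Cnn2 held the exact match CCTTATAAGG. The promoter of Col3a1, the gene most like the contractile set, held 0 matches, and Cavin3 and Il10rb have no entry in the table used here. An exact match was present in 1.47% of 32851 promoters of this length and a match with at most 1 mismatch in 18.62%. Of the 7 members with a promoter read here, 3 held such a match (Acta2, Cspg4 and Kcnj8) and 0 an exact one. Tagln and Myh11 have no entry in the table used here, and Pdgfrb was not read.

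Whether loss of Atf6 changes mural cell RNA in OIR was asked by comparing Atf6-/- with Atf6+/+ OIR retinas at P17. All 10 genes had lower means in Atf6-/- OIR, but none passed the test across all genes. The limma fit gave adjusted p between 0.302 and 0.426 for the 10, and 5 of 15704 genes tested were called in all (0.0318%). Before adjustment, 5 of the 10 were lower at p of 0.05 or less (Pdgfrb, Rgs5, Acta2, Myh11 and Tagln), beside 5.83% of all genes lower at that level. The median log2 fold change was -0.40 over the 6 pericyte genes and -0.71 over the 4 contractile genes, beside 0.0028 over all genes tested, and 49.3% of all genes were below 0.

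Pdgfrb, the receptor through which pericytes are recruited, was at 10.49, 10.26, 9.71, 6.64 and 10.47 FPKM in the 5 Atf6+/+ OIR libraries, listed here and below in replicate order, and at 5.64, 5.63, 6.32, 5.52 and 11.37 FPKM in Atf6-/- OIR. Within each group 4 libraries lay close together, and Atf6+/+ replicate 4 was low but still above those 4 of Atf6-/-, so the overlap came from Atf6-/- replicate 5 alone. Its log2 fold change was -0.48 ± 0.21 (SE), with an adjusted p of 0.382 in the limma fit and an exact two-sided permutation p of 0.143. Cspg4, the proteoglycan NG2 on the pericyte surface, had a similar arrangement, at 2.50, 2.75, 2.31, 1.29 and 2.51 FPKM in Atf6+/+ and 0.92, 1.33, 1.23, 0.94 and 3.46 FPKM in Atf6-/- OIR. Here Atf6+/+ replicate 4 lay just under the Atf6-/- library at 1.33 FPKM and Atf6-/- replicate 5 above all others, and the log2 fold change was -0.62 ± 0.33. Notch3, the Notch receptor of mural cells, was at 2.50, 2.88, 2.35, 1.49 and 2.45 FPKM against 1.18, 1.33, 1.33, 1.13 and 3.43 FPKM, for a log2 fold change of -0.53 ± 0.29. As for Pdgfrb, Atf6-/- replicate 5 was the highest of the 10 libraries and the only one to cross over.

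Rgs5 did not follow that arrangement. It was at 82.08, 98.12, 97.48, 75.58 and 62.53 FPKM in Atf6+/+ OIR and 61.97, 67.35, 66.17, 69.46 and 61.13 FPKM in Atf6-/- OIR. The Atf6-/- libraries were close to each other, and Atf6+/+ replicate 5 fell among them. The log2 fold change was -0.31 ± 0.11 with an adjusted p of 0.362 and an exact permutation p of 0.0397. Kcnj8 and Abcc9, which encode the Kir6.1 pore and the SUR2 subunit of the potassium channel that ATP closes in mural cells, overlapped between the groups. Kcnj8 was at 3.27, 2.80, 4.33, 3.59 and 2.72 FPKM in Atf6+/+ and 1.88, 3.16, 2.53, 2.28 and 3.32 FPKM in Atf6-/- OIR (log2 fold change -0.32 ± 0.17). Abcc9 was at 3.81, 3.90, 3.69, 2.97 and 3.06 FPKM and at 2.71, 2.72, 3.02, 2.95 and 3.30 FPKM (log2 fold change -0.22 ± 0.11), the smallest difference of the 10.

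Among contractile genes, Myh11, the smooth muscle myosin heavy chain, was the only one of the 10 whose groups did not overlap. Its levels were low, at 1.35, 1.45, 1.09, 1.08 and 0.93 FPKM in Atf6+/+ OIR and 0.74, 0.87, 0.68, 0.60 and 0.61 FPKM in Atf6-/- OIR. Every Atf6-/- library lay under every Atf6+/+ library, an arrangement found in 0.694% of all genes tested. The log2 fold change was -0.66 ± 0.14 with an unadjusted p of 0.000673, an adjusted p of 0.302 and an exact permutation p of 0.00794, the smallest that 5 against 5 can give. Acta2 was at 30.03, 24, 10.21, 19.99 and 14.20 FPKM in Atf6+/+ and 6.69, 10.01, 13.57, 8.90 and 15.15 FPKM in Atf6-/- OIR. The spread within Atf6+/+ was wide, and its replicates 3 and 5 fell within the Atf6-/- range; the log2 fold change was -0.79 ± 0.29 with an exact permutation p of 0.0556. Tagln, the actin-bundling protein transgelin, was at 15.37, 8.83, 5.33, 10.57 and 5.53 FPKM and at 3.07, 5.10, 5.50, 4.93 and 6.47 FPKM, in the same library order at the low end of Atf6+/+ as Acta2 (log2 fold change -0.76 ± 0.28). Des was at 3.99, 2.47, 2.58, 2.04 and 1.71 FPKM and at 1.09, 1.98, 1.53, 1.35 and 2.78 FPKM, with overlap and a log2 fold change of -0.52 ± 0.26.

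**Figure D2:**
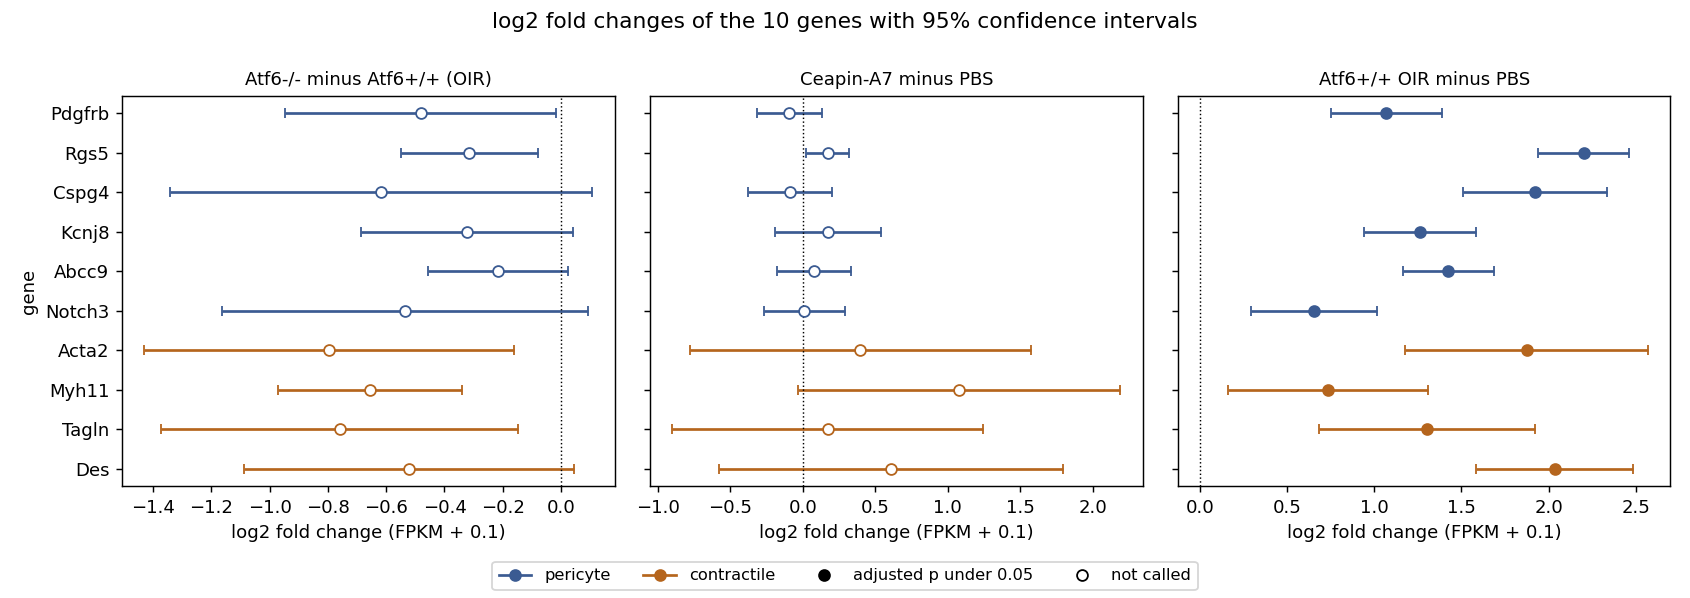
log2 fold changes with 95% confidence intervals from limma (x axis, log2 of FPKM + 0.1, with its own range in each panel) of the 6 pericyte and 4 contractile genes (y axis) in 3 comparisons, filled where the adjusted p was under 0.05. All 10 points lie below 0 in the Atf6 comparison with none filled, the pericyte genes lie between -0.09 and 0.17 in the Ceapin-A7 comparison, and all 10 are filled above 0 between the P17 and P30 experiments.

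Atf6+/+ replicate 4, the lowest of its group for Pdgfrb, Cspg4 and Notch3, and Atf6-/- replicate 5, the highest of its group for them, also stood apart across the transcriptome. Over 12693 genes, the difference of Atf6+/+ OIR replicate 4 from the other 4 libraries of its group had a Spearman correlation of -0.49 with the GC content of the transcript, and that of Atf6-/- OIR replicate 5 one of 0.58. Atf6-/- replicate 4 departed as far the other way, with a correlation of -0.61. Pdgfrb, Cspg4 and Notch3, at the percentiles 73.9, 92.6 and 93.6 of GC content, were 1.03, 1.64 and 1.46 higher on the log2 scale in Atf6-/- replicate 5 than in the rest of its group. Des (GC percentile 81.7), Acta2 (45.5), Tagln (60.6), Kcnj8 (65.4) and Abcc9 (28.3) were also higher there, by 0.95, 0.74, 0.57, 0.51 and 0.27, while Rgs5 (7.8) and Myh11 (64.3) differed by -0.05 and -0.14. Without Atf6-/- replicate 5 the log2 fold changes were -0.69 for Pdgfrb, -0.95 for Cspg4 and -0.83 for Notch3, and adjusted p over the 10 genes ran from 0.0968 to 0.155. Without Atf6+/+ replicate 4 they were -0.62, -0.81 and -0.69, and without Atf6-/- replicate 4 they were -0.41, -0.48 and -0.43, with adjusted p over the 10 genes of 0.678 to 0.727. Where the GC trend of each library was removed, a step added after the data were seen, the 3 genes were at -0.41, -0.49 and -0.40, Rgs5 at -0.43 and Myh11 at -0.61, and none of the 10 was called. In a fit that weights each library by its own spread, 4 of the 10 were called lower (Pdgfrb, Cspg4, Notch3 and Myh11), with adjusted p of 0.0249 to 0.025. That fit called 1556 of 15704 genes lower and 2772 in either direction. Over the 15227 genes with a known GC content, the log2 fold change between the genotypes itself had a Spearman correlation of -0.48 with GC content. Genes of high GC content thus tended to be lower in Atf6-/- OIR. The part of base composition in the differences was not tested beyond these values.

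**Figure D3:**
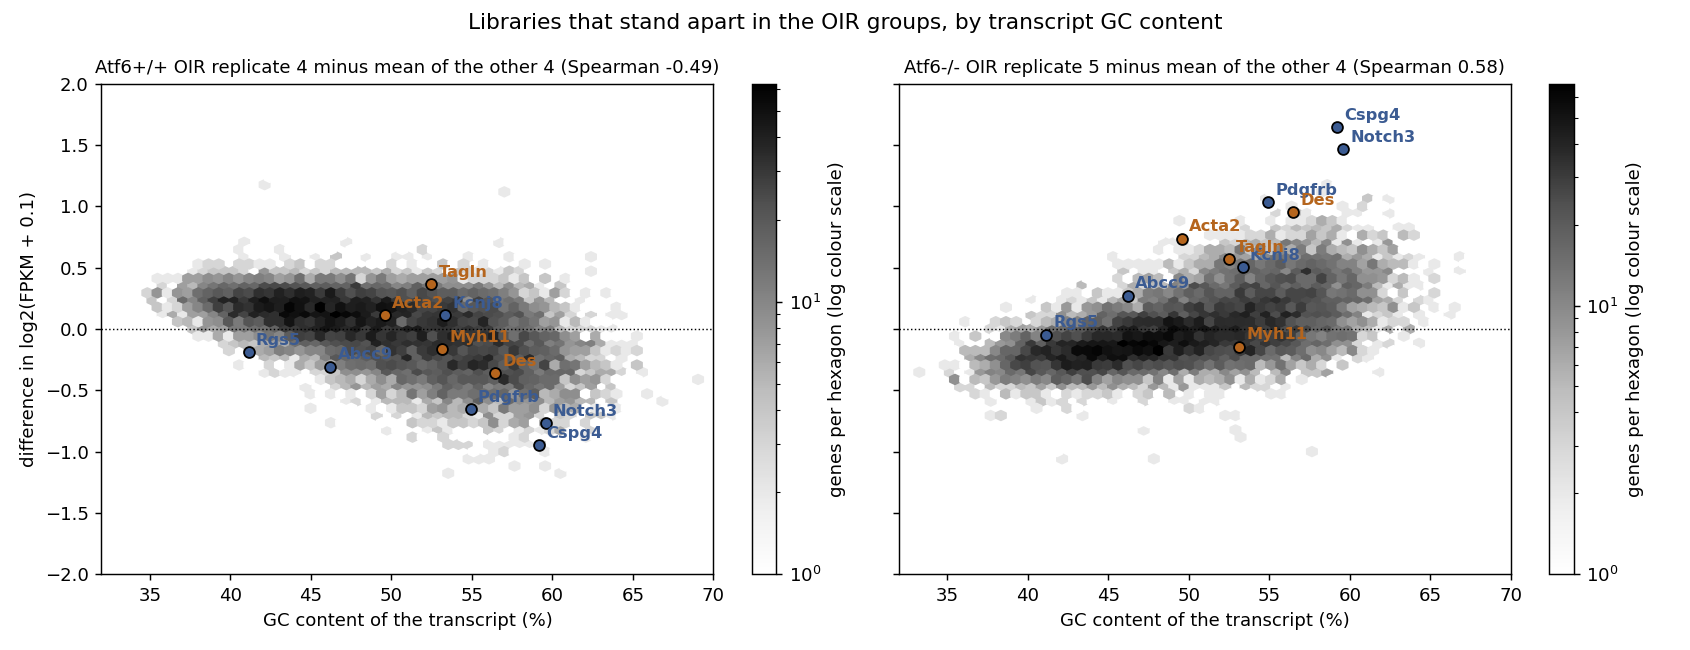
Difference in log2(FPKM + 0.1) between 1 OIR library and the mean of the other 4 of its group (y axis) against the GC content of the transcript in percent (x axis), with all genes as shaded hexagons and the 10 genes as points (blue for pericyte, orange for contractile). Cspg4, Notch3 and Pdgfrb lie below 0 in Atf6+/+ replicate 4 and above 0 in Atf6-/- replicate 5 as the high-GC genes do, while Rgs5 and Myh11 lie near 0 in both. Acta2, Tagln, Des and Kcnj8 also lie above 0 in Atf6-/- replicate 5.

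Wider lists of genes linked to the same cells were mixed, and whole-retina RNA does not show which cells made them. Mean levels of the further pericyte genes in Atf6+/+ OIR ran from 0.174 FPKM (Tbx18) to 458 FPKM (Vtn). Of 14 further contractile genes tested, 12 were below 0 in Atf6-/- OIR with a median of -0.30, 0 were called, and before adjustment 5 were lower at p of 0.05 or less. The smallest p was that of Tpm1, a tropomyosin, at 93.44, 77.75, 69.75, 72.85 and 66.16 FPKM in Atf6+/+ and 53.68, 62.73, 65.17, 59.35 and 61.97 FPKM in Atf6-/- OIR. These groups did not overlap, and the log2 fold change was -0.30 ± 0.09 with an adjusted p of 0.357. Of 18 further pericyte genes, 12 were below 0 and 6 above, with a median of -0.14 and 0 called, and before adjustment 1 was lower and 2 were higher at p of 0.05 or less. The lower one, with the smallest p of the list, was Cox4i2, a subunit of cytochrome c oxidase, at a log2 fold change of -0.29 ± 0.10 and an adjusted p of 0.362. The 2 higher ones were Zic1, a zinc finger transcription factor, at 0.31 ± 0.13, and Gucy1b1, a subunit of soluble guanylate cyclase, at 0.19 ± 0.08, each with an adjusted p of 0.374.

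Signals that recruit mural cells and genes of the endothelium were measured beside them. Of 21 recruitment genes, 16 were below 0, with a median of -0.13 and 0 called. Before adjustment, 4 were lower and 2 were higher at p of 0.05 or less in limma. Pdgfb, the gene of PDGF-B, was at 6.03 to 15.28 FPKM in Atf6+/+ and 4.10 to 6.68 FPKM in Atf6-/- OIR. Jag1, a Notch ligand, had the smallest p and was higher in Atf6-/- OIR, with a log2 fold change of 0.25 ± 0.09 and an adjusted p of 0.362. Of 14 endothelial genes 13 were below 0, with a median of -0.31, near that of the pericyte genes, and 0 called. Robo4, an endothelial guidance receptor, had the smallest p of these, at -0.69 ± 0.23 and an adjusted p of 0.361. Markers of neighbouring tissue spread widely between libraries, with summed ranges that overlapped between the genotypes and 0 genes called. The 11 lens genes summed to 9.15 to 489.24 FPKM in Atf6+/+ and 5.83 to 9.23 FPKM in Atf6-/- OIR, and the 10 genes of pigment epithelium and melanocytes to 22.45 to 132.58 FPKM and 85.51 to 311.97 FPKM. Of 10 lens genes tested, 9 were below 0, with a median of -2.38, and for 1 the groups did not overlap. Before adjustment 8 of them were lower at p of 0.05 or less in limma, beside 5.83% of all genes. Of the 10 pigment genes 9 were above 0, with a median of 0.62 and 4 higher at that level, beside 1087 of 15704 genes. The smallest p in these lists belonged to Cryaa, a lens crystallin (log2 fold change -5.46 ± 1.28), and Rgr, an opsin of the pigment epithelium (1.95 ± 0.60), neither of which passed the test. Fibroblast genes summed to 20.44 to 29.05 FPKM and 18.77 to 26.17 FPKM, and skeletal muscle genes to 6.20 to 20.06 FPKM and 7.16 to 8.28 FPKM. The part of these tissues in the mural values was not tested.

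P30 retinas taken 24 h after injection of Ceapin-A7 were compared with those taken after PBS. Pericyte genes differed little: their median log2 fold change was 0.04, and the 6 lay between -0.09 and 0.17. Contractile genes had higher means in Ceapin-A7, with a median of 0.50, but 1 or 2 libraries stood far above the rest. No member was called by limma (adjusted p of 0.472 to 0.984), as was no gene of 15408 (0.0%), although 1596 genes had p of 0.05 or less before adjustment. Rgs5 alone of the 10 was at that level, beside 5.04% of all genes higher at it.

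Rgs5 was at 16.36, 18.34, 15.77, 16.82 and 20.81 FPKM in PBS and at 18.96, 19.58, 20.73, 20.47 and 19.02 FPKM in Ceapin-A7. The Ceapin-A7 libraries were all above 4 of the PBS libraries and below PBS replicate 5, and the log2 fold change was 0.17 ± 0.07 with an adjusted p of 0.472 and an exact permutation p of 0.0635. Pdgfrb was at 5.54, 3.82, 4.48, 4.30 and 3.87 FPKM in PBS and 3.72, 3.82, 4.39, 4.16 and 4.37 FPKM in Ceapin-A7, so that PBS replicate 1 was the only library outside a narrow common range. Its difference of -0.09 had a 95% confidence interval of -0.32 to 0.13, and the intervals of Cspg4, Abcc9 and Notch3 ran from -0.38 to 0.20, -0.18 to 0.33 and -0.27 to 0.29. Kcnj8, at 1.09 to 1.71 FPKM in PBS and 1.04 to 1.98 FPKM in Ceapin-A7, had the widest interval of the pericyte genes, -0.19 to 0.54.

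Acta2 was at 9.50, 4.51, 3.25, 3.77 and 5.2 FPKM in PBS and at 5.15, 4.33, 31.68, 3.22 and 4.78 FPKM in Ceapin-A7. Apart from Ceapin-A7 replicate 3 the groups covered nearly the same levels, and PBS replicate 1 was the next highest. Tagln gave the same picture, at 4.71, 2.77, 2.37, 3.02 and 4.26 FPKM in PBS and 2.94, 3.48, 16.59, 2.38 and 1.77 FPKM in Ceapin-A7. Myh11 was at 1.37, 0.36, 0.51, 0.60 and 0.74 FPKM in PBS and 1.09, 1.31, 6.57, 0.84 and 0.86 FPKM in Ceapin-A7. For this gene the other 4 Ceapin-A7 libraries were also above 4 of the 5 PBS libraries, and the log2 fold change was 1.08 ± 0.51 with an adjusted p of 0.483. Des was at 0.60, 0.43, 0.45, 0.68 and 0.46 FPKM in PBS and 0.31, 0.41, 1.09, 4.54 and 0.53 FPKM in Ceapin-A7. For this gene Ceapin-A7 replicate 4 stood highest, and replicate 3 was next, above every PBS library.

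Markers of several tissues outside the retina varied along with these libraries, while lens genes followed another order. They are given here as levels without a test. In Ceapin-A7 replicate 3, Dcn, a proteoglycan of fibroblasts, was at 21.02 FPKM, against 1.67 to 2.93 FPKM in the other Ceapin-A7 libraries, and the 8 fibroblast genes summed to 55.49 FPKM in it and to 12.41 to 20.41 FPKM in the other 4. The 10 pigment genes summed to 440.28 FPKM in it and to 117.22 to 242.47 FPKM in the others, but the genes of the list were not alike. Its melanocyte genes Pmel, Mlana, Dct, Tyrp1 and Tyr were the highest of the group in replicate 3, with Mlana at 81.88 FPKM against 8.21 to 24.11 FPKM, whereas the pigment epithelium genes Rpe65, Rgr, Lrat and Ttr were the lowest of the group in it, with Ttr at 29.29 FPKM against 55.26 to 121.19 FPKM. PBS replicate 1, the highest PBS library for Acta2, Myh11 and Tagln, was also the highest PBS library for Dcn (2.89 FPKM) and Mlana (19.39 FPKM). In Ceapin-A7 replicate 4, the 12 skeletal muscle genes summed to 282.06 FPKM, against 4.77 to 7.79 FPKM in the 9 other P30 libraries, with Ckm, the muscle creatine kinase, at 27.80 FPKM. The 11 lens genes summed to 8704.13, 86.28, 688.21, 80.18 and 4114.49 FPKM in Ceapin-A7, so replicates 3 and 4 were not the highest. In PBS they summed to 4798.15, 1721.37, 7.86, 1685.16 and 24.43 FPKM. Without Ceapin-A7 replicate 3 the log2 fold changes were -0.17 for Acta2, -0.36 for Tagln and 0.56 for Myh11, and without replicate 4 that of Des was 0.03. Without both, the contractile median was -0.15 in place of 0.50, with Myh11 at 0.64, Acta2 at -0.03, Des at -0.27 and Tagln at -0.32, and the pericyte median was -0.05.

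**Figure D4:**
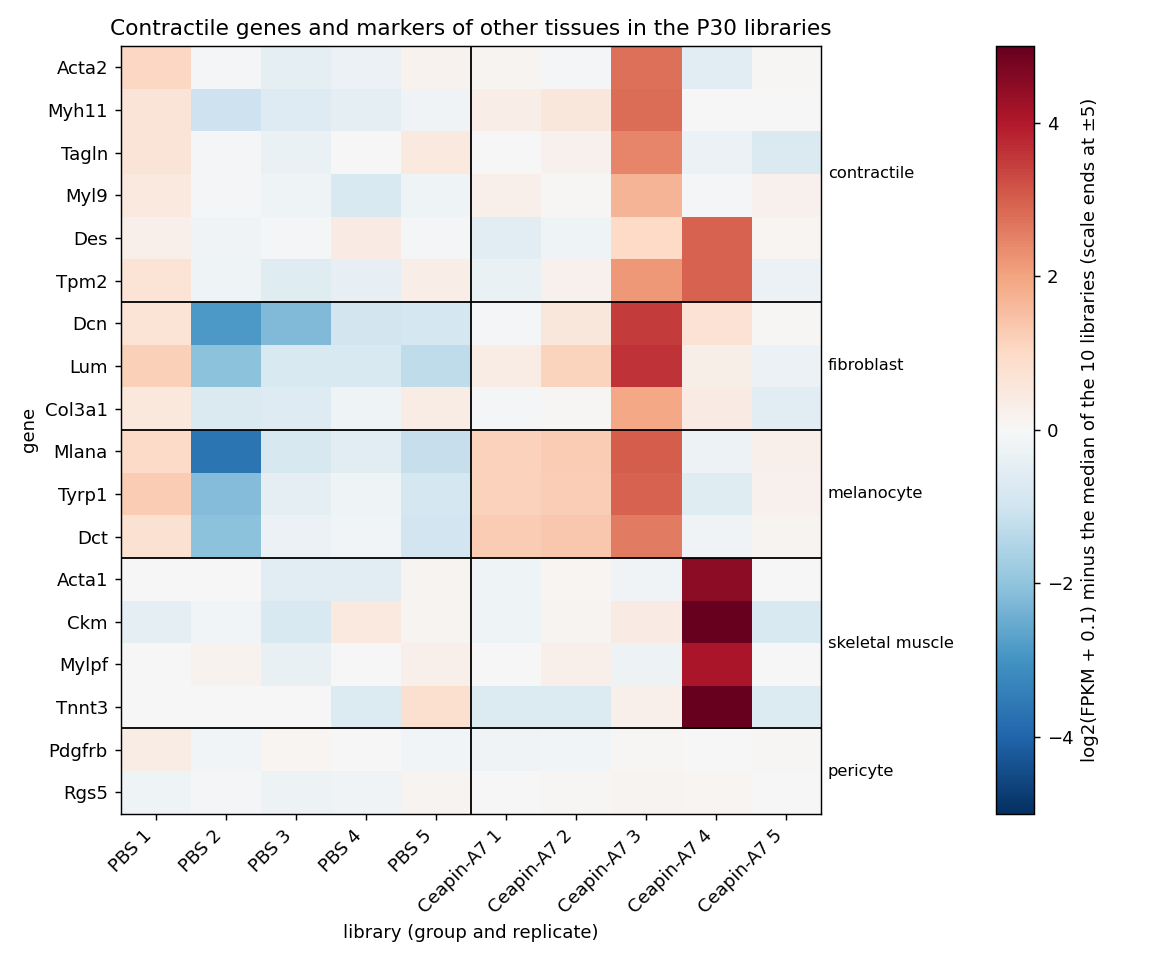
Heat map of log2(FPKM + 0.1) minus the median of the 10 P30 libraries (colour, scale ends at ±5) for contractile genes, markers of fibroblasts, melanocytes and skeletal muscle, and 2 pericyte genes (rows) in the PBS and Ceapin-A7 libraries (columns). Ceapin-A7 replicate 3 is high for Acta2, Myh11 and Tagln together with Dcn and Mlana, replicate 4 is high for Des together with Ckm, and Pdgfrb and Rgs5 are nearly level.

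Further lists gave no call between Ceapin-A7 and PBS. Of 17 further pericyte genes tested, 13 were above 0, with a median of 0.16, and Cox4i2 had the smallest p, at 0.41 ± 0.15 and an adjusted p of 0.472. Of 13 further contractile genes 7 were above 0, with a median of 0.02. Srf, which encodes serum response factor, had the smallest p of these, at -0.10 ± 0.05 and an adjusted p of 0.480. Recruitment genes had a median of -0.01 and endothelial genes one of -0.06. The smallest p in each belonged to Nrarp, a Notch target, at 0.29 ± 0.10, and Egfl7, an endothelial matrix protein, at 0.24 ± 0.08.

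Atf6+/+ OIR retinas at P17 were set beside PBS retinas at P30 to place the levels of the 2 experiments. The groups differ in age, oxygen history, injection and experiment, which cannot be told apart. All 10 genes were higher in Atf6+/+ OIR and passed the test, beside 27.8% of 15655 genes called higher and 55.5% called in either direction. For 8 of the 10 the groups did not overlap, beside 19.7% of all genes with every OIR library above every PBS library. The median log2 fold change was 1.34 for the pericyte genes and 1.59 for the contractile genes, beside 0.0084 over all genes.

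Rgs5 rose most, with a log2 fold change of 2.2 ± 0.12 and an adjusted p of 1.64e-07 in limma. The other pericyte genes rose by 1.92 ± 0.19 (Cspg4), 1.42 ± 0.12 (Abcc9), 1.26 ± 0.15 (Kcnj8), 1.07 ± 0.15 (Pdgfrb) and 0.66 ± 0.17 (Notch3) on the log2 scale. Notch3 overlapped between the groups, since Atf6+/+ OIR replicate 4 was at 1.49 FPKM and PBS reached 1.61 FPKM. Without that OIR library Notch3 rose by 0.81 and Cspg4 by 2.11, and all 10 genes still passed the test. Among contractile genes, Des rose by 2.03 ± 0.21, Acta2 by 1.87 ± 0.32 and Tagln by 1.30 ± 0.28. Myh11 rose least of these, by 0.73 ± 0.26 with an adjusted p of 0.0329 and an exact permutation p of 0.0556. PBS replicate 1, at 1.37 FPKM, lay within the OIR range, and this call was lost when PBS replicate 2, 3 or 4 or Atf6+/+ OIR replicate 1 or 2 was left out (adjusted p of 0.0629 to 0.0783) and under quantile normalization (0.149).

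Most genes of the further pericyte and contractile lists passed the test between these groups. Over all 15655 genes, 55.5% were called and 27.8% were called higher. Of 18 further pericyte genes 12 were called higher and 2 lower, with a median of 0.90. Ndufa4l2, a relative of a mitochondrial complex subunit that is abundant in pericytes, led them at 143.53, 105.27, 101.07, 94.46 and 101.04 FPKM in Atf6+/+ OIR and 5.17, 3.79, 3.51, 3.18 and 3.85 FPKM in PBS. Its groups lay far apart, at a log2 fold change of 4.75 ± 0.14. Ednra, the endothelin receptor A, rose by 2.15 ± 0.16, Art3 by 1.64 ± 0.17 and Cox4i2 by 1.38 ± 0.15. Of 14 further contractile genes 9 were called higher and 0 lower, led by Mylk, the myosin light chain kinase (1.02 ± 0.08), the enteric actin Actg2 (3.55 ± 0.30, with at most 0.08 FPKM in PBS, so that its size depends on the pseudocount), Smtn (1.74 ± 0.18) and Cald1 (1.12 ± 0.14).

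Recruitment genes moved in both directions, with 9 of 21 called higher and 5 lower and a median of 0.26. The share over all genes was 27.8% called higher and 55.5% called in either direction. Nrarp rose by 1.24 ± 0.11, Angpt2, an angiopoietin that loosens mural contact, by 3.56 ± 0.32, the Notch ligand Dll4 by 1.92 ± 0.20 and the TGF-beta co-receptor Eng by 2.11 ± 0.22. Endothelial genes were called higher in 11 of 14, with a median of 1.18, led by Pecam1 (1.68 ± 0.11), Emcn (2.44 ± 0.20), Robo4 (2.19 ± 0.18) and Egfl7 (1.30 ± 0.11). Other tissue markers differed too: red blood cell genes summed to 379.58 to 2504.89 FPKM in Atf6+/+ OIR and 141.54 to 370.68 FPKM in PBS, microglia genes to 39.23 to 57.34 FPKM and 16 to 20.18 FPKM, and pigment genes to 22.45 to 132.58 FPKM and 126.37 to 284.44 FPKM. Lens genes summed to 9.15 to 489.24 FPKM in Atf6+/+ OIR and 7.86 to 4798.15 FPKM in PBS. All 11 were below 0, with a median of -2.54 and 0 called. The part of other tissues in the mural values was not tested.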

How the data were processed

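Stranded mRNA libraries from whole retina were sequenced by the authors, and the submitters' processing notes name HISAT2 2.0.4, RSEM 1.2.18, DESeq2 1.4.5 and the build GRCm39. The deposited values are FPKM per gene and library, in 4 tables. They hold no counts, so the fits were made on log2(FPKM + 0.1), after each library was rescaled to a common median ratio, leaving out genes whose mean FPKM was under 0.1. Each comparison of 5 against 5 libraries was fitted with limma 3.58.1 (R 4.3.3) without covariates, with Benjamini-Hochberg adjustment over all genes tested, with calls made at adjusted p below 0.05. An exact two-sided permutation test over the 10 libraries stands beside it. Differences are on this log2(FPKM + 0.1) scale, which understates those of low genes. On simulated data, 95% of 2-fold changes were recovered for the Atf6 comparison over 15704 genes, 99% for Ceapin-A7 over 15408 and 93% for the P17 and P30 comparison over 15655. The simulated noise was independent between genes, with the widest spreads capped, and only genes with a mean FPKM above 1 were changed. These shares therefore do not cover library-wide departures or low genes, and give no power for the members that were not called. Read totals are unknown, so relative depth was taken from the step size of low values. GC content came from annotated transcripts. Alternatives covered the pseudocount, the filter, the scaling, weights per library, all 20 libraries in 1 fit, replicate number as a blocking factor, GC correction and leaving out each library.

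The members and lists were chosen with earlier results of these data known. The named genes are the 10 members, the genes called in each further list (at most 4 by smallest p, otherwise the 1 with the smallest p), and the 5 genes most correlated with each set of members. Others named (Zic1, Gucy1b1 and Pdgfb in the Atf6 comparison, and the tissue markers such as Dcn, Mlana, Ttr and Ckm) were chosen after their values were seen. Smaller lists of rod, glia, microglia and red blood cell genes were read in the same fits: in the Atf6 comparison their medians were 0.10, 0.02, -0.10 and -0.51, and with Ceapin-A7 they were 0.18, 0.03, 0.19 and -0.07, with 0 called. Replicate numbers did not pair the libraries: same-numbered libraries correlated at -0.26 to 0.21 in the OIR comparison, -0.22 to 0.31 in the Ceapin-A7 comparison and -0.33 to 0.19 between experiments.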

Additional observations from a re-analysis of the deposited data

Results flagged for a closer look

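In groups of 5 libraries, 9 values of the 10 genes lay so far from the rest of their group that the gap to the nearest library exceeded 0.71 of the group's range. In all, 40 groups were examined, and chance gives about 1 in 20 for independent, normally distributed values. These genes vary together within libraries, so the count cannot be set against that rate. In the Atf6+/+ OIR group, replicate 4 was low for Pdgfrb (6.64 FPKM). In the Atf6-/- OIR group, replicate 5 was high for Pdgfrb (11.37 FPKM), Cspg4 (3.46 FPKM) and Notch3 (3.43 FPKM). In the Ceapin-A7 group, replicate 3 was high for Notch3 (1.87 FPKM), Acta2 (31.68 FPKM), Myh11 (6.57 FPKM) and Tagln (16.59 FPKM), and replicate 4 was high for Des (4.54 FPKM). Each gap was taken on the FPKM scale. The values of other genes in these libraries stand in the report, and what set them apart was not tested.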

How the results depend on the processing

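Between Atf6-/- and Atf6+/+ OIR retinas, the 10 genes stayed below 0 under all alternatives run. Library weights called 2772 genes and 4 members, and the fit of all 20 libraries called 11 genes, against 5 genes and 0 members; leaving out 1 library gave 5 to 9 genes, the 9 without Atf6-/- replicate 5. In the main fit the calls split 4 higher and 1 lower. The split differed under several alternatives, such as 4 and 2 with FPKM as deposited or as TPM. It was 4 and 3 without the filter and 6 and 5 in the fit of all 20 libraries. Between Ceapin-A7 and PBS, the fit of all 20 libraries called 1 gene against 0. Signs turned there only for differences that were not called: Abcc9 (-0.0023), Notch3 (-0.11), Acta2 (-0.032), Tagln (-0.32) and Des (-0.27) without replicates 3 and 4, Notch3 as TPM (-0.029) and with library weights (-0.019), and Tagln with weights (-0.0066). Leaving out 1 library gave -0.088 to 0.057 for Notch3, -0.17 to 0.64 for Acta2 and -0.36 to 0.43 for Tagln. Between Atf6+/+ OIR and PBS, a pseudocount of 1 gave a pericyte median of 0.97, and Myh11 also lost its call without the filter (adjusted p of 0.0603) and in the fit of all 20 libraries (0.115). With the replicate number as a block, 5, 0 and 8027 genes were called in the 3 comparisons, against 5, 0 and 8696, and no member changed its call; with GC correction besides, 4, 0 and 7886 were. A library correlated best with its own number in 1, 1 and 0 of 5 cases. The GC corrections and the joint removal of Ceapin-A7 replicates 3 and 4 were chosen after the data were seen. The cause of these changes was not tested. FPKM without counts gives no counting error, so low genes such as Myh11 and Cspg4 in P30 retinas are limited in a way these values do not show.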
